A study of Mus musculus with 64 samples.

Results

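Iron uptake, storage and sensing in blood-forming cells was followed through 10 genes in the bone marrow and spleen of scat mice, which carry a mutant allele of Rasa3. The Rasa3 protein turns Ras and Rap1 off. The members were chosen by symbol, not by their values: Tfrc, Tfr2, Slc11a2, Steap3, Fth1, Ftl1, Ncoa4, Ireb2, Aco1 and Pcbp1. All 10 were found among the 26286 genes of the deposited table. Homozygous mutants (CbyJ.Cby-Rasa3(scat)/Llp scat/scat) were sampled in anemic crisis (18 libraries of 3 mice, 23 to 28 days old) or in partial remission (17 libraries of 5 mice, 32 to 58 days old). Wild-type mice of the same strain background (CbyJ.Cby-Rasa3(scat)/Llp +/+) matched the crisis ages in 18 libraries of 7 mice (young wild type) and the remission ages in 10 libraries of 3 mice (older wild type). The mutation is present in the whole animal, and no agent was given. RNA came from whole tissue, from sorted megakaryocyte-erythroid progenitors (MEP) and from SMP, a mixed gate of stem and myeloid progenitor cells (Lin-, Sca1-, Kit+, CD34+ cells with low CD16/32). The SMP gate was used because BALB mice carry too little Sca1 for stem cells to be separated. Each of the 6 populations has 3 crisis and 3 young wild-type libraries.

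Iron reaches red cell precursors mainly as transferrin iron. Transferrin binds the transferrin receptor, the complex is taken into endosomes, the reductase STEAP3 reduces the iron there, and the transporter DMT1 carries it into the cytosol. Ferritin, a shell of heavy and light chains, stores iron that the chaperone PCBP1 delivers, and NCOA4 takes ferritin to lysosomes when iron is to be released. The iron regulatory proteins IRP1 (from Aco1) and IRP2 (from Ireb2) sense cytosolic iron. When iron is low they bind hairpins called iron-responsive elements, which protects the Tfrc message from decay and blocks translation of the ferritin messages. Erythroblasts that make hemoglobin have the greatest iron demand of any cell and carry many transferrin receptors.

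The hairpins are shown because the iron regulatory proteins act on messages through them. In the GRCm38 transcripts of GENCODE release M21, a hairpin pattern was found in 3 of the 10 members. The pattern was a C, 5 bases, the loop CAGTGN and 5 bases that pair with the first 5. Whether the C was unpaired was not checked. Such a match was present in the transcripts of 294 of 21877 protein-coding genes (1.34%), searched on the transcript strand only. Capitals mark the loop. The Tfrc matches lie downstream of the coding sequence, on the plus strand of chromosome 16 (chr16:32631220-32631246, chr16:32631599-32631625, chr16:32631664-32631690 and chr16:32631711-32631737). The ferritin matches lie upstream of the coding sequence, in Fth1 at chr19:9982733-9982759 on the plus strand and in Ftl1 at chr7:45459780-45459806 on the minus strand.
Tfrc hairpin 1: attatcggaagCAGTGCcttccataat
Tfrc hairpin 2: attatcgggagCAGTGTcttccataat
Tfrc hairpin 3: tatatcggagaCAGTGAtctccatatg
Tfrc hairpin 4: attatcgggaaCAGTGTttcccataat
Fth1 hairpin: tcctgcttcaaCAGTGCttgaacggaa
Ftl1 hairpin: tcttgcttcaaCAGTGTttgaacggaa
The Fth1 and Ftl1 hairpins share the same 5 bases on either side of the loop. In the other 7 members these letters were not found, which says nothing of other forms of the element. Slc11a2, which is known to carry an element downstream of its coding sequence, is among these 7, so the search was incomplete.

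Libraries had totals of 33.6 to 107.6 M (median 50.6 M) on the normalised scale, with 16413 to 19940 genes detected. Values below are normalised counts rescaled over the 63 libraries with a group. A log2 change between states comes from a fit within 1 population, and differences between cells, tissues or tissue changes come from fits across populations. For the members, a log2 change between crisis and young wild type differs from the one these values give by at most 0.1. For remission this was not compared. Replicates are separate mice, so p-values measure the spread between mice. Most mice gave several populations, so populations are not independent. The 3 young wild-type mice of spleen SMP gave no other library. Mice 2955 (young wild type, whole bone marrow), 2822 (older wild type, spleen SMP), 2866 and 2868 (remission, spleen SMP) also gave a single library each. Of the libraries labelled with mouse 2726 (scat, remission, 58 days), 4 of 4 resembled the mean of wild-type libraries more than that of the other scat libraries of their population. For mouse 27265 (wild type, 58 days) 3 of 4 lay nearer the scat mean, against 10 of 55 libraries of all other mice that lay nearer the other genotype. Most of those 10 were remission libraries, so lying nearer wild type did not by itself set mouse 2726 apart. In whole spleen, though, no other remission mouse lay nearer wild type (mouse 2726: r = -0.864 with scat, 0.698 with wild type). For mouse 27265 the gap was small in whole bone marrow (r = -0.261 with scat, -0.324 with wild type). It was small in bone marrow MEP too (-0.128, -0.176) and larger in bone marrow SMP (-0.095, -0.396). The main remission results are also given without these mice. A whole spleen library with conflicting labels was left out of the comparisons.

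Markers of the sorted cells fitted the gates in part. The summed level of 10 erythroid markers was 155981 to 187936 in young wild-type bone marrow MEP and 9042 to 14471 in SMP. The summed level of 6 stem and early progenitor markers was 13795 to 18444 in MEP and 101519 to 113818 in SMP. B cell, T and NK cell and macrophage markers were above 0 in each sorted population, so the sorted cells were not free of RNA from other types. In bulk RNA, fewer cells of a type and less RNA per cell cannot be told apart.

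Among the members, the ferritin genes were the most abundant transcripts in young wild-type mice, on a scale of normalised count per kilobase of transcript. In bone marrow MEP, Fth1 stood at 75185 ± 7669 (SD, n = 3) and Ftl1 at 61843 ± 6174 per kilobase. Pcbp1 (15953 ± 1412) and Tfrc (11452 ± 957.2) followed, then Steap3 (4164 ± 531.1), Tfr2 (3405 ± 415.8) and Slc11a2 (3025 ± 276.6). Ncoa4 (1759 ± 111.5), Ireb2 (1187 ± 26.22) and Aco1 (1114 ± 85.05) were lowest. In that order Fth1 and Ftl1, Steap3 and Tfr2, Tfr2 and Slc11a2, and Ireb2 and Aco1 overlapped in mean ± SD. Within each of these libraries the Fth1 count was 1.158 to 1.177 times that of Ftl1. In bone marrow SMP, the ferritin genes also led per kilobase (Ftl1 25508 ± 1223, Fth1 23018 ± 775.2), but Ncoa4 (3858 ± 204.9) stood above Tfrc (1352 ± 88.63), and Slc11a2 (465.6 ± 62.81) and Steap3 (443.9 ± 67.98) were lowest. Reads from near-identical ferritin copies in the genome may be split among them, so the ferritin levels are uncertain. Adding the copies that the table lists changed no call and moved no ferritin log2 change in crisis at 2 decimals.

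**Figure D1:**
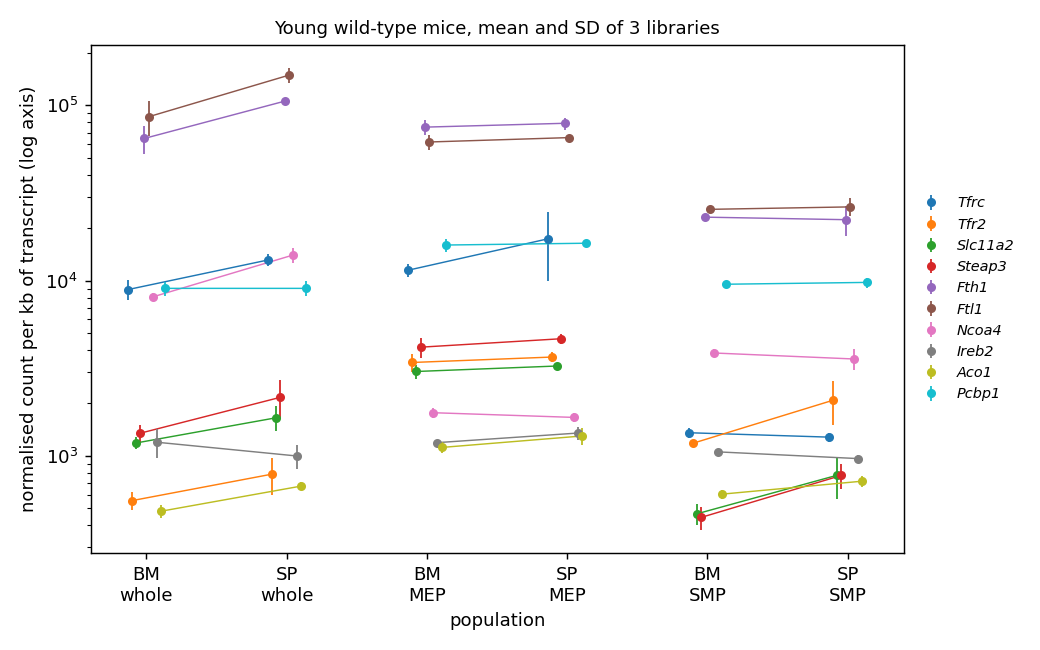
Normalised count per kilobase of transcript (y, log axis) of the 10 genes in the 6 populations (x) of young wild-type mice. Points are means and bars SD of 3 libraries, and thin lines join bone marrow (BM) and spleen (SP) of the same cells. Ncoa4 (pink) is lowest in MEP, where Tfrc, Steap3 and Slc11a2 are higher than in SMP.

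In young wild-type bone marrow, 9 of the 10 members were higher in MEP than in SMP and 1 was lower. Many genes separated these cells: 37.3% of all genes tested were higher in MEP and 36.9% lower. The largest difference was that of Steap3, the endosomal iron reductase (10.1-fold, log2 3.33, SE 0.121, adjusted p = 1.3e-06). Tfrc, the transferrin receptor, measured 59544, 50694 and 57763 in MEP against 6114, 6815 and 6906 in SMP (9.07-fold, log2 3.18, SE 0.0779, adjusted p = 1.85e-07). Slc11a2, which encodes DMT1, was 6.98-fold higher in MEP. The ferritin genes differed less, Fth1 by 3.49-fold and Ftl1 by 2.59-fold. Ireb2 differed least of all (1.21-fold, log2 0.28, SE 0.0507, adjusted p = 0.00128).

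Ncoa4 went the other way. Its level was 7426, 6625 and 7394 in bone marrow MEP and 16620, 15411 and 15023 in SMP, a log2 difference of -1.03 (SE 0.0639, adjusted p = 4.92e-06). In spleen, the same split of 9 higher and 1 lower was found, beside 32.4% of all genes tested higher in MEP and 33.7% lower, with Ncoa4 at -1.0 (SE 0.12, adjusted p = 0.000206) and Tfrc at 3.78 (SE 0.263). Ncoa4 was highest in whole spleen (61408, 58683 and 50449), where its range did not meet that of any sorted population. NCOA4 is the receptor that carries ferritin to the lysosome. Without rescaling of the columns, spleen MEP stood lower than SMP over all genes, and Ireb2 and Pcbp1 changed sign there (log2 -0.32 and -0.05).

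In whole tissue of young wild-type mice, 7 of 10 members were higher in spleen than in bone marrow (13.9% of all genes tested) and none was lower (13.7%). Ftl1 differed by 0.78 (SE 0.187, adjusted p = 0.0119), Ncoa4 by 0.74 (SE 0.131, adjusted p = 0.0022) and Fth1 by 0.69 (SE 0.154, adjusted p = 0.00822) on the log2 scale. Tfr2 (0.43, adjusted p = 0.0938), Ireb2 (-0.31, 0.227) and Pcbp1 (-0.03, 0.877) did not pass. Without bone marrow wild-type replicate 3 the count was 2, and without bone marrow replicate 1 or spleen replicate 2 it was 4. Without rescaling of the columns it was 0. Erythroid markers summed to 953420 to 1372484 in spleen and 451139 to 627986 in bone marrow, and macrophage markers to 41424 to 76947 and 14596 to 20075. Their part in these differences was not tested.

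In crisis, members rose in 5 of the 6 populations. In whole bone marrow 3 of 10 members rose (4.68% of all genes tested rose). In whole spleen 7 of 10 rose (22.3%). Bone marrow MEP had 1 rising member (0.183%) and spleen MEP had 0 (0.569%). Of SMP, those of bone marrow had 3 (1.25%) and those of spleen 4 (12.2%). No member fell past the threshold in any of the 6. Of all genes tested, 4.19% fell in whole bone marrow and 23.9% in whole spleen, 0.0140% and 0.605% in MEP of the 2 tissues, and 1.10% and 11.3% in their SMP. In spleen MEP, limma gave an unadjusted p under 0.05 to 1 member, Tfrc, and to 3025 of all genes. The median log2 change of the members was 0.53 in whole bone marrow and 0.71 in whole spleen, -0.04 and 0.00 in MEP of bone marrow and spleen, and 0.35 and 0.87 in their SMP. Over all genes tested it lay between -0.05 and 0.01. With remission and older wild type in the same fit, which then share 1 spread per gene with crisis, no member passed in whole spleen (Tfrc 2.59, adjusted p = 0.0949) or bone marrow MEP (Tfrc 1.33, adjusted p = 0.253). With limma run with neither trend nor robust weights, none passed in whole bone marrow, bone marrow MEP or SMP of either tissue, with adjusted p of 0.059, 0.12, 0.0526 and 0.0814 for Tfrc in that order.

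**Figure D2:**
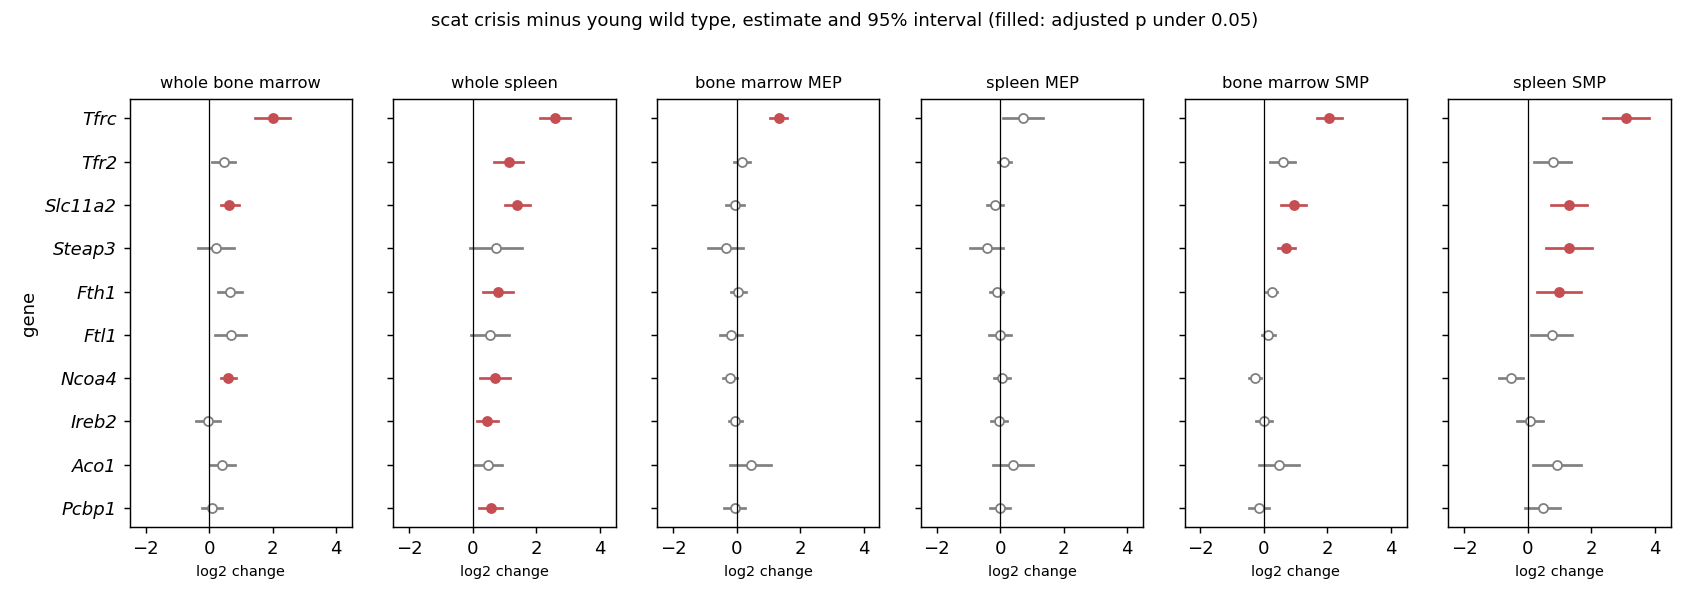
Log2 change (x) of each gene (y) in scat crisis against young wild type, 3 mice each, in 6 populations. Points are estimates and lines 95% intervals, and filled red points passed an adjusted p of 0.05. Tfrc lies farthest right in each panel, from 0.72 in spleen MEP to 3.09 in spleen SMP, and the MEP panels hold 1 filled point.

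Tfrc was the member with the highest log2 change in each of the 6 populations. In whole bone marrow its level was 191925, 124180 and 229952 in crisis and 43590, 37594 and 48936 in young wild type (4.02-fold, log2 2.01, SE 0.238, adjusted p = 0.00675). In whole spleen it was 389549, 300065 and 474020 against 68400, 65421 and 58313 (6.01-fold, log2 2.59, SE 0.211, adjusted p = 3.55e-05). In both tissues each crisis mouse stood above each wild-type mouse.

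In bone marrow MEP, Tfrc measured 139173, 155109 and 125322 in crisis against 59544, 50694 and 57763 (2.51-fold, log2 1.33, SE 0.111, adjusted p = 0.00758), and it was 1 of the 26 genes that rose there. In spleen MEP the values were 102157, 137010 and 164734 against 71559, 57086 and 125539 (log2 0.72, 95% interval 0.08 to 1.36, adjusted p = 0.188). The spleen MEP groups overlapped because wild-type replicate 3 stood above crisis replicate 1. In wild-type replicates 1 and 2 the low values of all genes were multiples of 1 step size. In wild-type replicate 3 and the crisis libraries they were not, so this trait and state are partly confounded. The difference between the spleen and the bone marrow change of Tfrc in MEP did not pass (log2 -0.59, 95% interval -1.19 to 0.00, adjusted p = 0.873).

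In SMP the levels of Tfrc were lower and its changes larger. Bone marrow SMP held 21502, 26317 and 34527 in crisis against 6114, 6815 and 6906 (4.17-fold, log2 2.06, SE 0.173, adjusted p = 0.00674). Spleen SMP held 31520, 81180 and 47783 against 5930, 6645 and 6143 (8.51-fold, log2 3.09, SE 0.32, adjusted p = 0.0206). Neither pair of groups overlapped. The call in spleen SMP was lost without any 1 wild-type library (replicate 1, 2 or 3) or without crisis replicate 3, with log2 changes of 3.05, 3.14, 3.08 and 3.13 and adjusted p of 0.0898, 0.0568, 0.087 and 0.0648. The call in bone marrow SMP was lost without crisis replicate 2 (2.07, adjusted p = 0.0528), and that in bone marrow MEP without wild-type replicate 1 (1.36, adjusted p = 0.0502).

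Erythroid markers moved with Tfrc in 4 of the populations. Of 10 erythroid markers, 7 rose in whole bone marrow and 10 in whole spleen, 0 and 1 in MEP of bone marrow and spleen, and 8 and 9 in their SMP. Their summed level was 1140286 to 1216214 in crisis against 451139 to 627986 in whole bone marrow, and 2272509 to 3510004 against 953420 to 1372484 in whole spleen. In SMP this sum was 28377 to 59440 in crisis against 9042 to 14471 in bone marrow, and 90589 to 221583 against 38029 to 47551 in spleen. In bone marrow MEP the sums were 168491 to 210404 and 155981 to 187936, where Tfrc rose with no erythroid marker past the threshold. Only 0.183% of all genes tested rose there, and no marker of the other types passed either. Median log2 changes there were -1.72 for stem, -1.32 for megakaryocyte, -3.12 for B cell and -1.08 for T and NK cell markers. They were -0.10 for macrophage and 0.23 for neutrophil markers. The stem sums overlapped, at 7016 to 23195 in crisis against 13795 to 18444. B cell and T and NK cell markers fell in whole spleen, 6 of 6 and 7 of 7. In whole bone marrow 1 of 6 and 1 of 7 fell. The B cell sum there was 5554 to 48252 in crisis against 81822 to 99735, and the T and NK cell sums overlapped. In spleen SMP 5 of 6 stem markers fell, and their sum was 25427 to 74966 in crisis against 87135 to 109649. In bone marrow SMP 2 of 6 fell, and the sum was 73194 to 88648 against 101519 to 113818. Of 9 macrophage markers, 3 rose in whole bone marrow (sum 20718 to 35003 in crisis against 14596 to 20075) and 2 fell in whole spleen (22861 to 80153 against 41424 to 76947) and in spleen SMP (1538 to 3058 against 4287 to 6178). Of 6 megakaryocyte markers, 2 fell in whole bone marrow and 1 in SMP of each tissue. The part of these marker changes in the changes of Tfrc and the other members was not tested.

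Tfrc per unit of summed erythroid markers was 0.0872 to 0.210 in crisis and 0.0504 to 0.0610 in young wild type in whole spleen. In bone marrow MEP this ratio was 0.637 to 0.777 against 0.258 to 0.355, and in spleen SMP 0.399 to 0.472 against 0.145 to 0.191. In these 3 populations and in whole bone marrow (0.103 to 0.188 against 0.0585 to 0.0967) the groups did not overlap. In bone marrow SMP (0.631 to 1.003 against 0.493 to 0.789) and spleen MEP (0.513 to 0.820 against 0.254 to 0.535) they did. These ratios are descriptions with no test.

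**Figure D3:**
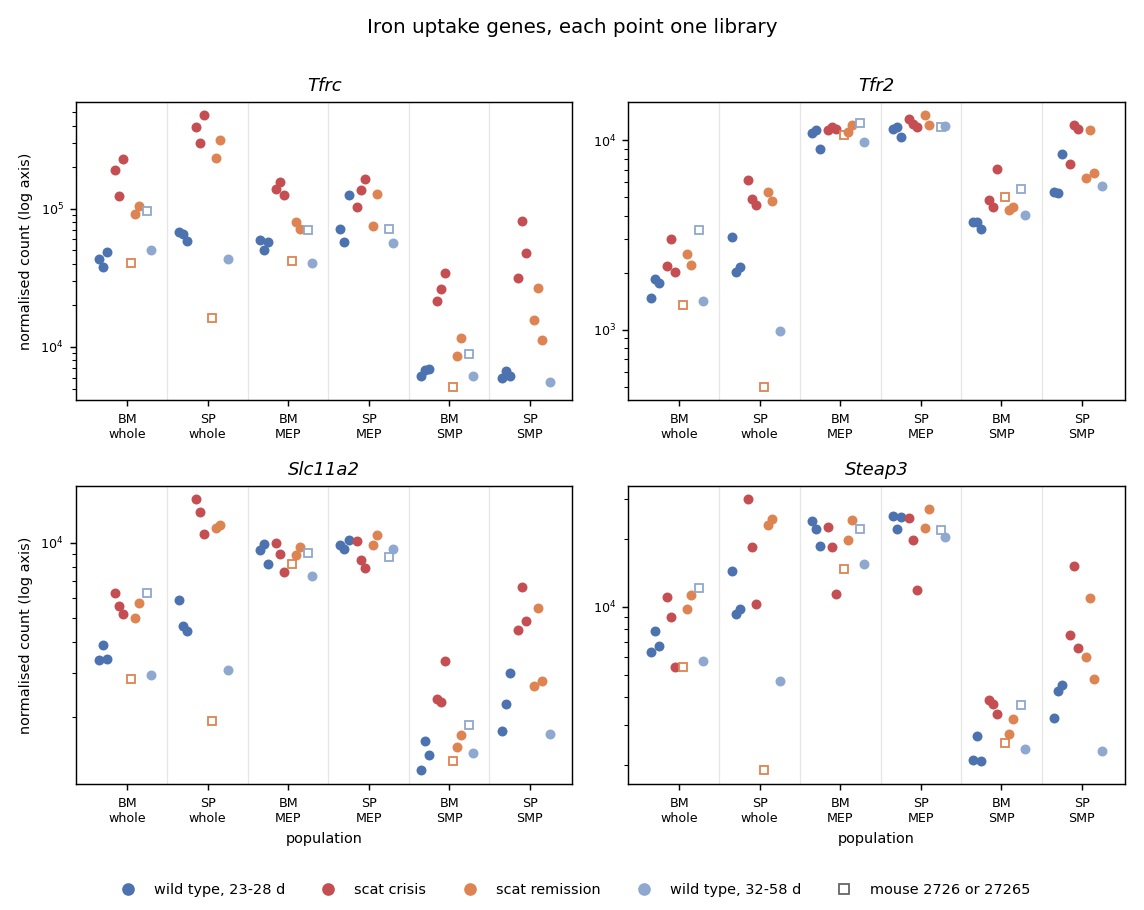
Normalised count (y, log axis) of Tfrc, Tfr2, Slc11a2 and Steap3 in each library, by population (x) and state (colour); open squares are libraries of mice 2726 and 27265. Crisis points of Tfrc lie above young wild type except in spleen MEP, and the open square of mouse 2726 lies below both remission mates for Tfrc in each population that has it.

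Slc11a2 rose in whole tissue and SMP and not in MEP. In whole spleen it measured 14933, 13303 and 10868 in crisis against 5894, 4628 and 4416 (2.64-fold, log2 1.40, SE 0.175, adjusted p = 0.000324). In whole bone marrow it measured 6295, 5583 and 5172 against 3397, 3902 and 3417 (log2 0.64, SE 0.125, adjusted p = 0.0242). Neither tissue showed an overlap.

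In the test of the difference between the tissues Slc11a2 passed, and its spleen change exceeded the bone marrow change by 0.70 (SE 0.18, adjusted p = 0.0128), a direction called for 9.89% of all genes tested. Without rescaling of the columns this difference did not pass (0.75, adjusted p = 0.47). Tfr2 (0.62, 95% interval 0.07 to 1.16, adjusted p = 0.0882) and Pcbp1 (0.42, 0.06 to 0.79, adjusted p = 0.085) did not pass. In MEP and in SMP no member passed the test of the difference, and 0% of all genes did so in this direction by limma, with 799 and 4182 genes at an unadjusted p under 0.05. In SMP the estimate for Tfrc was 1.02 (95% interval 0.23 to 1.81, adjusted p = 0.123), that for Fth1 0.75 (0.05 to 1.45, adjusted p = 0.163) and that for Pcbp1 0.60 (0.03 to 1.16, adjusted p = 0.167), and without spleen crisis replicate 1 the count of members was 3. In SMP the Slc11a2 change was 0.94 in bone marrow (adjusted p = 0.0391) and 1.29 in spleen (adjusted p = 0.0278), without overlap. In MEP it was -0.04 (95% interval -0.33 to 0.24) and -0.16 (-0.41 to 0.08). The whole bone marrow call was lost without wild-type replicate 1 or 3 or crisis replicate 2 or 3 (adjusted p of 0.0897, 0.113, 0.0895 and 0.0548). In bone marrow SMP any 1 wild-type library (0.161, 0.0752 and 0.168) or crisis replicate 2 (0.0883) had this effect, and in spleen SMP any 1 wild-type library (0.0898, 0.0947 and 0.087) or crisis replicate 3 (0.0648).

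Tfr2, a second transferrin receptor that also binds the erythropoietin receptor, rose in whole spleen: 6152, 4904 and 4566 in crisis against 3085, 2010 and 2132 (2.2-fold, log2 1.14, SE 0.2, adjusted p = 0.00183). Its log2 change was 0.46 in whole bone marrow (adjusted p = 0.123), 0.60 and 0.80 in SMP of bone marrow (0.0946) and spleen (0.0519), and 0.16 and 0.13 in the MEP populations (0.497 and 0.442). The ratio of Tfrc to Tfr2 counts was 1.03 ± 0.271 in young wild-type spleen SMP and 5.04 ± 1.47 in crisis (SD, n = 3), with ranges that did not overlap. They did not overlap in whole tissue, bone marrow MEP or bone marrow SMP either, and overlapped in spleen MEP (4.85 to 12.1 against 7.83 to 14.0). No test was made of the ratio.

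Steap3 rose in SMP of both tissues. In bone marrow SMP it measured 3855, 3719 and 3353 in crisis against 2103, 2694 and 2072 (1.64-fold, log2 0.71, SE 0.12, adjusted p = 0.0289). In spleen SMP it measured 7488, 15170 and 6565 against 3224, 4222 and 4490 (2.46-fold, log2 1.30, SE 0.318, adjusted p = 0.0289). The groups did not overlap in either. In whole spleen the crisis range of 10307 to 29844 overlapped the wild-type range of 9297 to 14313 (log2 0.72, adjusted p = 0.134), and in MEP the estimates were -0.34 and -0.42 (adjusted p = 0.495 and 0.307). The bone marrow call was lost without wild-type replicate 1 or 3 or crisis replicate 2 (adjusted p of 0.143, 0.155 and 0.0987), and the spleen call without any 1 wild-type library (0.0917, 0.0947 and 0.087) or crisis replicate 3 (0.0648).

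Among the storage genes, Fth1, the ferritin heavy chain that oxidises iron, rose in whole spleen and spleen SMP. Whole spleen held 206357, 183620 and 126200 in crisis against 98297, 93827 and 102624 (1.73-fold, log2 0.79, SE 0.211, adjusted p = 0.0139). Spleen SMP held 24601, 55291 and 40584 against 23589, 22305 and 16158 (1.99-fold, log2 1.0, SE 0.308, adjusted p = 0.046), with the lowest crisis mouse just above the highest wild-type mouse. In whole bone marrow the groups did not overlap, at 79742 to 107065 against 50533 to 72009, and the test missed its threshold (log2 0.66, SE 0.17, adjusted p = 0.0504). In bone marrow MEP Fth1 was at 0.06 (95% interval -0.18 to 0.30), where Tfrc rose. The whole spleen call was lost without wild-type replicate 2 (0.74, adjusted p = 0.0645). The spleen SMP call was lost without any 1 wild-type library (0.0975, 0.108 and 0.14), crisis replicate 2 (0.083) or crisis replicate 3 (0.103), and with regularised log2 values (0.82, 0.0599).

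The mean count of Fth1 per count of Tfrc was lower in crisis. In bone marrow SMP the ratio was 3.24 ± 0.198 in young wild type and 0.930 ± 0.211 in crisis (SD, n = 3), and in bone marrow MEP it was 1.26 ± 0.206 and 0.517 ± 0.0247. The ranges did not overlap in whole bone marrow, whole spleen, bone marrow MEP or either SMP population, and overlapped in spleen MEP (0.638 to 1.22 against 0.388 to 0.669). Ftl1, the ferritin light chain, did not pass in any population. Its log2 change was 0.68 in whole bone marrow (adjusted p = 0.0845), 0.55 in whole spleen (0.118) and 0.76 in spleen SMP (0.079). Without crisis replicate 3 the whole spleen value was 0.85 (adjusted p = 0.00579).

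Pcbp1, which delivers iron to ferritin, rose in whole spleen: 26048, 25893 and 20598 in crisis against 17908, 14801 and 16827 (1.47-fold, log2 0.56, SE 0.157, adjusted p = 0.0174). The call was lost without wild-type replicate 2 or 3 or crisis replicate 2 (adjusted p of 0.0843, 0.0551 and 0.0603). In the other populations its estimates lay between -0.14 in bone marrow SMP (adjusted p = 0.562) and 0.47 in spleen SMP (0.173).

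Ncoa4 rose in whole tissue. Whole bone marrow held 49460, 52516 and 51188 in crisis against 30984, 33902 and 33478 (1.53-fold, log2 0.61, SE 0.103, adjusted p = 0.0176), and whole spleen 86996, 119797 and 74383 against 61408, 58683 and 50449 (1.63-fold, log2 0.71, SE 0.209, adjusted p = 0.0213). In SMP each crisis mouse stood below each wild-type mouse: 13159, 12636 and 11996 against 16620, 15411 and 15023 in bone marrow, and 10197, 8642 and 9386 against 15939, 15281 and 12250 in spleen. Neither SMP difference passed in the fit of these groups (log2 -0.28, adjusted p = 0.0902, and -0.52, adjusted p = 0.0542). With young and older wild type together both did (-0.29, adjusted p = 0.0365, and -0.53, adjusted p = 0.0179). The bone marrow call in whole tissue was lost without wild-type replicate 1 or 3 or crisis replicate 2 or 3 (0.067, 0.0857, 0.0727 and 0.0548), and the spleen call without wild-type replicate 2 or 3 or crisis replicate 2 (0.0674, 0.0867 and 0.0653).

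**Figure D4:**
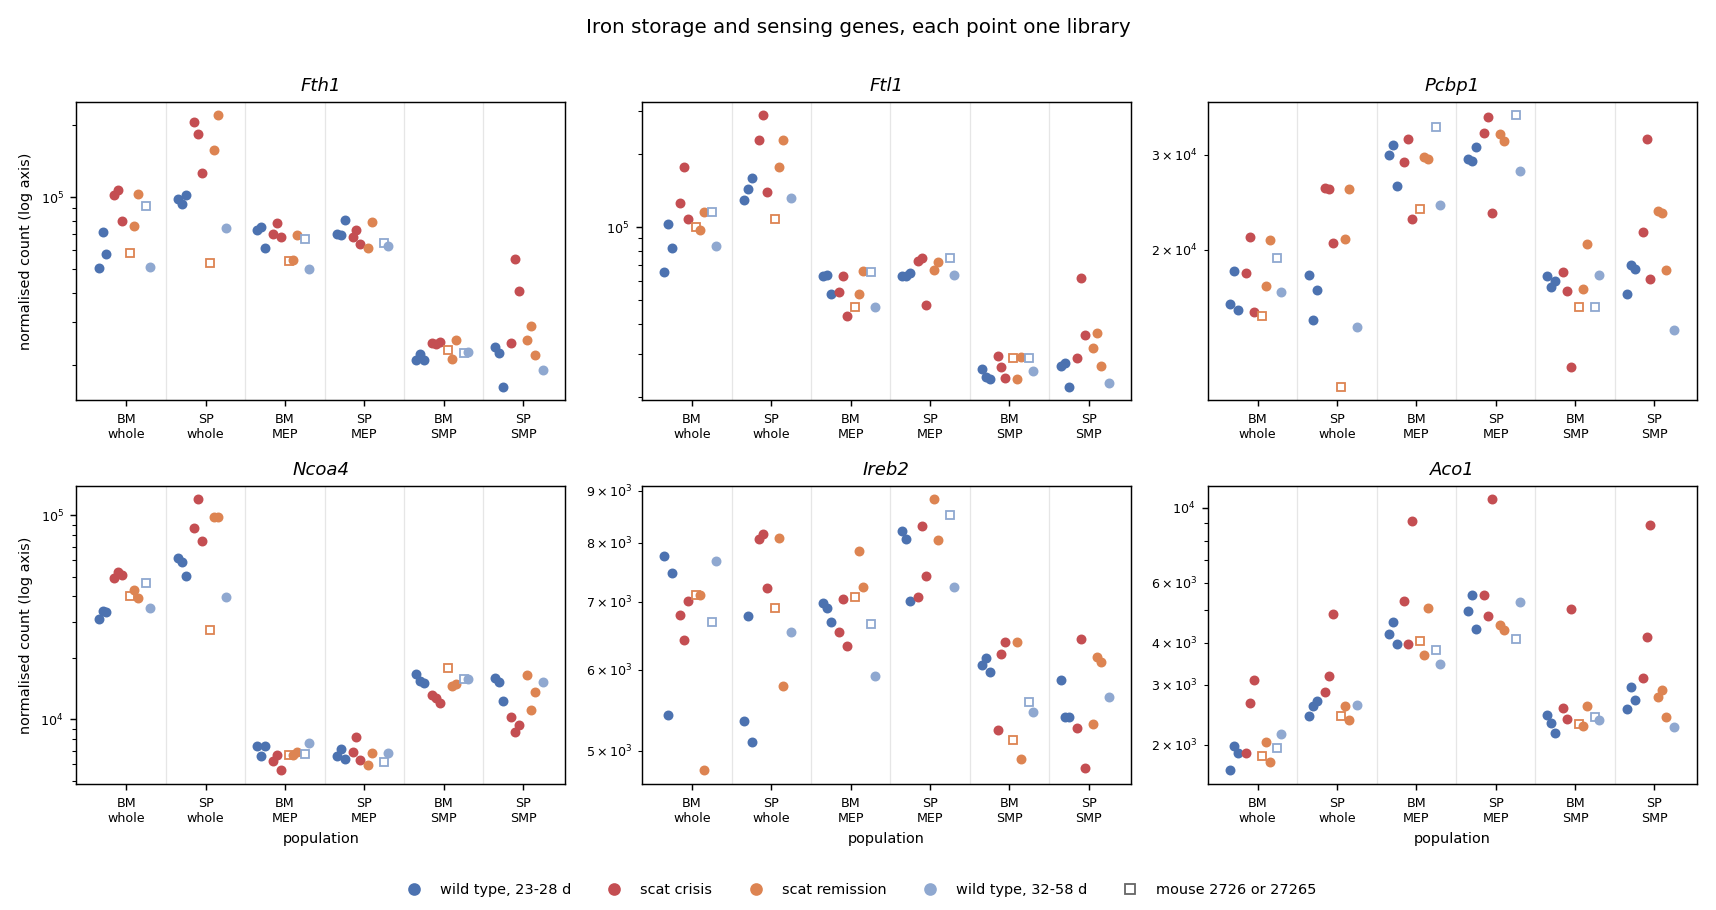
Normalised count (y, log axis) of the ferritin genes, Pcbp1, Ncoa4, Ireb2 and Aco1 in each library, by population (x) and state (colour); open squares are libraries of mice 2726 and 27265. For Ncoa4 the crisis points lie above young wild type in whole tissue and below it in SMP, and for Aco1 the highest crisis point in each population is mouse 2953.

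Of the sensors, Ireb2 passed in 1 population and Aco1 in 0. Ireb2, which encodes IRP2, rose in whole spleen: 8061, 8163 and 7216 in crisis against 5345, 6782 and 5100 (1.38-fold, log2 0.46, SE 0.145, adjusted p = 0.0271). The call was lost without wild-type replicate 1 or 3 or crisis replicate 2 (adjusted p of 0.0664, 0.111 and 0.0841). In the other 5 populations its estimates were between -0.04 and 0.07, and its 95% interval in bone marrow SMP was -0.24 to 0.24. Over the populations of young wild-type mice, the mean of Ireb2 varied by 1.40-fold, the least of the 10, and that of Tfrc by 13.6-fold, the most.

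Aco1, which encodes IRP1, did not pass in any population, and its crisis values were divided by mouse. In bone marrow MEP the crisis libraries held 5321, 3974 and 9122 against 4254, 4603 and 3952 in young wild type. In spleen SMP they held 3155, 4144 and 8893 against 2549, 2960 and 2712, without overlap (log2 0.93, 95% interval 0.18 to 1.68, adjusted p = 0.0664). The groups did not overlap in whole spleen either (0.48, 95% interval 0.04 to 0.91, adjusted p = 0.0726). In bone marrow SMP the change was 0.47 (95% interval -0.14 to 1.09, adjusted p = 0.322). There the groups overlapped on the scale of these values (2373 to 5034 against 2165 to 2447) and not as rescaled in the fit. With upper-quartile rescaling the whole spleen change passed (0.59, adjusted p = 0.0292). Crisis mouse 2953, replicate 3, aged 26 days, was the highest of the 3 crisis mice in all 6 populations, at 1.37 to 2.44 times the mean of the other two. The same mouse was the lowest of the 3 in all 6 populations for Steap3 (0.428 to 0.885 times) and Pcbp1 (0.657 to 0.793 times), and in 5 of 6 for Ftl1. For Tfrc it was the highest in 4 and the lowest in 1. Without this mouse the Aco1 change in bone marrow MEP was 0.11 in place of 0.45. The 6 libraries come from 1 animal and are not replicates of each other.

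Few differences between remission and crisis passed. Remission mice were older than crisis mice, and the contrast was not adjusted for age. Older wild-type mice held Tfrc at 6126 and 8837 (mouse 27265) in bone marrow SMP, beside 6114 to 6906 in young wild type. In whole bone marrow both older wild-type libraries (50134 and 97107) stood above young wild type (37594 to 48936). In bone marrow SMP, 2 of 10 members fell from crisis to remission (0.420% of all genes tested fell). Tfrc measured 5153, 8615 and 11532 in remission against 21502, 26317 and 34527 in crisis (log2 -1.79, SE 0.277, adjusted p = 0.0269). Slc11a2 measured 1332, 1508 and 1695 against 2357, 2289 and 3349 (log2 -0.84, SE 0.172, adjusted p = 0.0439). Without mice 2726 and 27265 neither passed, at -1.47 (adjusted p = 0.0838) and -0.75 (0.159), and with crisis and remission alone in the fit the adjusted p was 0.0841 and 0.101. The remaining remission mice still stood below each crisis mouse for both genes.

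In the other populations no member passed by limma: 0% of all genes fell in whole bone marrow, whole spleen, spleen MEP and spleen SMP, and 0.00693% in bone marrow MEP. Between 949 and 3238 genes had an unadjusted p under 0.05 in these 5. Tfrc was at -1.27 in whole bone marrow (adjusted p = 0.177), -1.19 in bone marrow MEP (0.188) and -1.63 in spleen SMP (0.197), in each case without overlap with crisis. Without mice 2726 and 27265 the first 2 were -0.83 (adjusted p = 0.306) and -0.91 (0.137), still without overlap. In whole spleen the remission mice were divided, with Tfrc at 16162 in mouse 2726 and at 231608 and 315842 in the other two (log2 -1.86 with both mice in the fit and -0.48 without mice 2726 and 27265, adjusted p = 0.305 and 0.346), and Steap3 at 1888 against 22875 and 24434. Ncoa4 in SMP was higher than in crisis without overlap, at 14535 to 17862 in bone marrow (log2 0.28, adjusted p = 0.101) and 11142 to 16441 in spleen (0.47, adjusted p = 0.204).

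Other genes of iron handling, 46 in 4 lists of which 44 were in the table, were counted beside the share of all genes that rose or fell. Of the uptake and carrier genes, 2 of 15 tested rose in whole bone marrow (4.68% of all genes), and in whole spleen 4 of 12 rose (22.3%) and 3 fell (23.9%). Exoc6, an exocyst gene needed for recycling of the transferrin receptor, rose by 1.64 in whole spleen (SE 0.164, adjusted p = 9.7e-05) and by 0.71 in whole bone marrow (SE 0.128, adjusted p = 0.0198). Picalm, a clathrin adaptor of receptor uptake, rose by 1.17 and 0.73 (adjusted p = 0.00189 and 0.0176). The ferrireductase gene Steap4 (-3.72, adjusted p = 0.000181) and Slc22a17 (-1.47, 0.0377), a receptor of lipocalin-bound iron, fell in whole spleen, and the metal importer Slc39a8 rose (1.32, 0.00243). In spleen SMP 2 of 11 rose (12.2%) and 2 fell (11.3%), with Trf, which encodes transferrin, at -2.34 (SE 0.508, adjusted p = 0.0278), Slc22a17 at -2.06 (0.0331) and Slc39a8 at 1.46 (0.0317). None of 12 passed in bone marrow MEP, of 11 in spleen MEP and of 12 in bone marrow SMP.

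Of the export and systemic control genes, 2 of 11 rose in whole bone marrow (4.68% of all genes), and 4 of 12 rose (22.3%) and 1 fell (23.9%) in whole spleen. In MEP 1 of 8 rose in bone marrow (0.183%) and 0 of 8 in spleen (0.569%). In SMP 2 of 9 rose in bone marrow (1.25%), and 4 of 9 rose (12.2%) and 1 fell (11.3%) in spleen. Erfe, the erythroid hormone that lowers hepcidin, was at 137.2 to 202.4 in young wild-type bone marrow MEP, 1840 to 7151 in crisis and 101.1 to 1159 in remission (crisis log2 4.32, SE 0.462, adjusted p = 0.0258). It rose in each population but spleen MEP. Blvrb, a biliverdin reductase of heme breakdown, rose in whole spleen (1.14), bone marrow SMP (1.71) and spleen SMP (2.15), with adjusted p of 0.0014, 0.0237 and 0.0278. Slc40a1, the iron exporter ferroportin, rose in spleen SMP (1.62, SE 0.298, adjusted p = 0.0278), as did the heme exporter Flvcr1 (1.13, 0.0278). Slc48a1, a heme transporter, rose in whole bone marrow (0.81, adjusted p = 0.0152).

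Of the storage and chaperone genes outside the 10, 1 of 7 rose in whole bone marrow, beside 4.68% of all genes (Tax1bp1, 0.52, adjusted p = 0.035, an autophagy adaptor). In whole spleen 3 of 7 rose (22.3%) and 1 fell (23.9%), the RNA-binding protein gene Pcbp4 (-2.16, adjusted p = 0.00108). In spleen SMP 2 of 7 rose (12.2%) and 1 fell (11.3%), in bone marrow SMP 1 fell (1.10%), and in MEP of either tissue 0 passed. Herc2, a ubiquitin ligase that degrades NCOA4, was the one that fell in bone marrow SMP (-0.73, SE 0.134, adjusted p = 0.0383). Of 6 other sensing genes, 2 rose (22.3%) and 1 fell (23.9%) in whole spleen and 1 fell (11.3%) in spleen SMP, Epas1 (-3.38, adjusted p = 0.0464), a hypoxia-inducible factor subunit at 0 to 20.04 in crisis and 34.66 to 57.77 in wild type, low counts that leave its size uncertain. The other 4 populations gave 0 of 6.

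Over the 63 libraries, the genes whose log2 levels were most like that of Tfrc included Memo1 (Pearson r = 0.963), a gene without a matched symbol (ENSMUSG00000037814, 0.955), Rhag (0.952) and Dek (0.952), of 15938 genes compared. Rhag, a red cell membrane gene, is 1 of the 10 erythroid markers. Among the members, Slc11a2 and Steap3 were closest to each other (0.965), then Fth1 and Ftl1 (0.942) and Tfrc and Fth1 (0.911), while Ncoa4 and Tfr2 ran opposite (-0.732). The libraries share mice and populations, so these are descriptions of how levels vary across 6 kinds of sample.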

How the data were processed

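RNA-seq libraries (KAPA mRNA HyperPrep, per the labels' protocols) were aligned and quantified by the authors with Bowtie2 2.2.0, RSEM, DESeq2 and GRCm38, per the submitters' processing notes, which give no order. The authors deposited normalised counts, a signal per gene and library that is not whole reads, and regularised log2 values, used as an alternative. Of 26286 identifiers, 25607 were matched to GENCODE M21.

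Groups came from the labels: 63 of 64 libraries were assigned. Within each fit, columns were divided by their median ratio, log2(value + 1) was taken, genes averaging under 10 were dropped, and limma 3.58.1 (R 4.3.3; trend, robust) was fitted. Two-sided p-values were adjusted by Benjamini-Hochberg over all genes tested in that fit, with a threshold of 0.05. Crisis fits hold crisis and young wild type only, and remission fits all 4 groups. Tissue contrasts, and those between cells of the same mice, treat the mouse as a random block (for the tissue contrasts, the block correlation was 0.274, 0.55 and 0.313 in whole tissue, MEP and SMP). An exact test of 3 against 3 mice cannot go below 0.1. The fit was tested on simulated data.

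The members, lists and tests were chosen with earlier results of these data known. Beside the members, other iron genes were named by rule (at most 8 per crisis comparison, those past the threshold with the largest change), and the 5 genes most like Tfrc, of which 1 is not reported here.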

Additional observations from a re-analysis of the deposited data

Results flagged for a closer look

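Slc11a2 changed more in whole spleen than in whole bone marrow in crisis, by 0.70 on the log2 scale in a test of the difference itself (adjusted p = 0.0128). Without rescaling of the columns the difference was 0.75 and did not pass (adjusted p = 0.47).

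One whole spleen library (mouse 27265) has conflicting labels and no group. It held 8 of the 10 members above the whole spleen range of wild-type mice. Tfrc was at 142753 (wild type 40171 to 67132, crisis 295452 to 462169), Tfr2 at 4352 (wild type 902.2 to 3028) and Slc11a2 at 8816 (wild type 2836 to 5785, crisis 10596 to 14452). Steap3 was at 17553, Fth1 at 144791, Ftl1 at 202471, Ncoa4 at 79331 and Pcbp1 at 21815. Ireb2 (5973) and Aco1 (2387) lay within the wild-type range. Tfrc, Tfr2 and Slc11a2 stayed below the lowest crisis library. These values were rescaled with the other whole spleen libraries, and no test was made with 1 library.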

How the results depend on the processing

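Counts are members past the threshold. In crisis, without rescaling of the columns 1 was called in whole bone marrow and 4 in whole spleen, 1 in spleen MEP (0 with rescaling), and 1 and 2 in SMP of bone marrow and spleen. All groups in 1 fit gave 0 in whole spleen and 0 in bone marrow MEP, and limma with neither trend nor robust weights gave 0 in whole bone marrow, bone marrow MEP and both SMP populations. Young and older wild type together gave 1 in whole bone marrow and 8 in spleen SMP. Leaving out 1 library gave 1 to 4 in whole bone marrow, 4 to 9 in whole spleen, 0 to 1 and 0 in MEP of bone marrow and spleen, and 0 to 5 and 0 to 7 in their SMP. In remission, bone marrow SMP gave 1 without rescaling, 0 without mice 2726 and 27265, 0 without mouse 2726 alone (added after seeing the data) and 0 with crisis and remission only. Without 1 library it gave 0 to 2, whole bone marrow 0 to 1 and spleen SMP 0 to 3. The tissue difference of the crisis change gave 0 without rescaling and 1 to 2 without 1 library in whole tissue, and 0 to 3 in SMP. Without rescaling, the wild-type MEP and SMP of spleen differed in 5 members and the whole tissues in 0. Without 1 library the whole tissues differed in 2 to 7. In wild-type spleen MEP against SMP, Ireb2 (-0.32) and Pcbp1 (-0.05) reversed without rescaling, where the median of all genes stood at -0.98. That median was -0.55 in spleen SMP and between -0.11 and 0.19 in the other 5 crisis comparisons, and between -0.15 and 0.16 in remission. The causes of the other changes were not tested. Without the replicate block on mice, the counts were the same: 1, 0 and 0 for the tissue differences, 10 for MEP against SMP in bone marrow and 7 for the whole tissues. Log2 changes of members called in crisis changed sign in 0 of 268 alternatives and lost the call in 82. Sequencing depth is not known from the deposited values, and the number of mice limits the precision.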
